A study of Mus musculus with 4 samples.

Results

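This section follows 10 genes that mouse cells switch on quickly after a stimulus, or that encode subunits of the transcription factor AP-1, in female germline stem cells (FGSCs) with and without knockdown of *Nat10*. The genes were chosen by name: *Fos*, *Fosb*, *Fosl1* and *Fosl2* of the FOS family, *Jun*, *Junb* and *Jund* of the JUN family, and the immediate early genes *Egr1*, *Ier2* and *Ier3*. They are 10 of the 53465 genes with a deposited FPKM, a fragment count divided by exon length and by a divisor for each library. Long RNA-seq was made from cultured FGSCs of mouse ovary infected with lentivirus for a control shRNA, called shNC, or for *Nat10* knockdown, called shNAT10. Each group had 2 biological replicates, so there were 4 libraries, shNC-1, shNC-2, shNAT10-1 and shNAT10-2. The age of the animals, the time after infection and the *Nat10* shRNA used for these libraries were not given in the sources used here. *Nat10* encodes the enzyme that writes N4-acetylcytidine on RNA.

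AP-1 is a pair of bZIP proteins held together by a leucine zipper. A JUN protein can pair with itself or with a FOS protein, whereas FOS proteins need a JUN partner, and the pair binds short DNA sites called TRE and CRE. Immediate early genes need no new protein synthesis to be transcribed after a growth factor or stress signal, because serum response factor, its ETS partners and CREB are already in place, and their mRNAs are short-lived. *Jund* is an exception in this group, being transcribed steadily in most resting cells.

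The target of the knockdown was measured first. *Nat10* FPKM was 7.79 and 5.42 with shNC and 2.95 and 3.04 with shNAT10. Values given in pairs are replicates 1 and 2 in that order. *Nat10* was lower in both knockdown libraries, at 45.4% of the shNC mean. *Nat10* fell by 1.09 on the log2 scale (SE 0.21, adjusted p = 0.123), a call that was lost without shNAT10-1 and without shNAT10-2. Here and below, a change is the difference of log2(FPKM + 0.1) between shNAT10 and shNC, a scale on which changes of low genes come out too small. A gene was called when its fold change was over 1.2 with an unadjusted limma p of at most 0.05, the threshold of the study, and adjusted p-values are Benjamini-Hochberg over all 20116 genes tested.

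The libraries held 11057921 to 14902434 recovered fragments on genes, and 7454426 to 9420923 on protein-coding genes. The ribosomal RNA-related locus *Gm42418* took 16.2% to 23.1% of the shNC fragments and 8.57% to 10.3% of the shNAT10 fragments. Of 12 germline stem cell markers, *Dazl*, *Pou5f1*, *Dppa3* and *Fut4* were at 0 in all 4 libraries and 4 passed the filter on low values, with a summed FPKM of 17.0 to 28.7 in shNC and 31.6 to 38.0 in shNAT10, most of it *Ifitm3*, at 9.29 and 22.2 with shNC and 27.1 and 33.6 with shNAT10 and not called. The 1 call among them was *Etv5*, lower at 6.95 and 5.89 with shNC and 3.57 and 3.47 with shNAT10. Of 11 mast cell markers, 6 passed the filter. *Fcer1a* and *Tpsb2* were at 0 in all libraries, and *Tpsab1*, *Mcpt4*, *Cma1* and *Hdc* were at most 0.585. The summed FPKM was 322 to 332 in shNC and 325 to 330 in shNAT10, most of it *Cpa3* at 245 to 272 and then *Gata2* at 31.6 to 41.5. Among the mast cell markers 3 were called lower, *Kit* (-0.60), *Mitf* (-0.39) and *Gata2* (-0.33), and 1 higher, *Ms4a2* (2.12). With a library left out, the calls of *Kit* and *Ms4a2* held in 3 of the 4 fits, that of *Gata2* in 2 and that of *Mitf* in 1. The 8 pan-leukocyte markers, led by *Cd53* and *Coro1a*, summed to 424 to 466 in shNC and 360 to 366 in shNAT10, with 4 called lower. The 8 fibroblast markers, led by *Dcn* and *Pdgfra* and with *Lum* at 0, summed to 47.4 to 54.3 in shNC and 55.6 to 65.2 in shNAT10, with 3 called higher. The 7 granulosa cell markers, led by *Inha* and *Amh* and with *Foxl2*, *Fshr* and *Gatm* at 0, summed to at most 0.485. The libraries labelled germ stem cells thus had defining germline markers at 0 and some leukocyte and mast cell genes at high FPKM, with other mast cell markers at or near 0, in both groups. The part of these markers in the results on the members was not tested. In bulk RNA, fewer cells of a type and less RNA per cell cannot be told apart.

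Of the 10 genes, 9 reached a mean FPKM of 0.1 and were tested, and *Fosb* was below it. The test called 5 of the 9 lower in shNAT10 (*Jund*, *Ier2*, *Egr1*, *Ier3* and *Jun*) and 0 higher, and it did not call *Fos*, *Fosl1*, *Fosl2* and *Junb*. Over all genes tested, 16.2% were called, 7.83% lower and 8.41% higher. Calls were more frequent among genes with higher FPKM, and below 1 FPKM 3.26% were called lower. At a mean FPKM of at least 10, 16.2% of genes were called lower, against 3 of the 4 members there. Between 1 and 10 FPKM, 8.59% of genes were called lower, against 2 of the 4 members there. The count of members called lower was 5 without shNC-1, 3 without shNC-2, 3 without shNAT10-2 and 1 (*Jund*) without shNAT10-1, and it was 3 in limma without the trend. The median log2 change of the 9 members was -0.44, beside 0.01 over all genes tested.

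All 9 tested members had a log2 change below 0, as had 9956 of the 20116 genes tested. The highest of the 4 values of each of the 10 genes lay in an shNC library, and the share of all genes with this trait was not computed. Both shNAT10 libraries were below both shNC libraries for 7 of the 9 tested members, which was also so for 24.1% of all genes tested. No member (0 of 9) had an adjusted p under 0.05 in limma on FPKM, while 5 had an unadjusted p under 0.05. In limma-voom on recovered fragments, 2 of the 9 had an adjusted p under 0.05, *Jund* and *Egr1*, as had 7.88% of all genes in that fit. With 2 libraries a group, the exact two-sided permutation test cannot give a p under 0.3333, and it gave that value for each of the 7 tested members whose groups did not overlap.

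**Figure D1:**
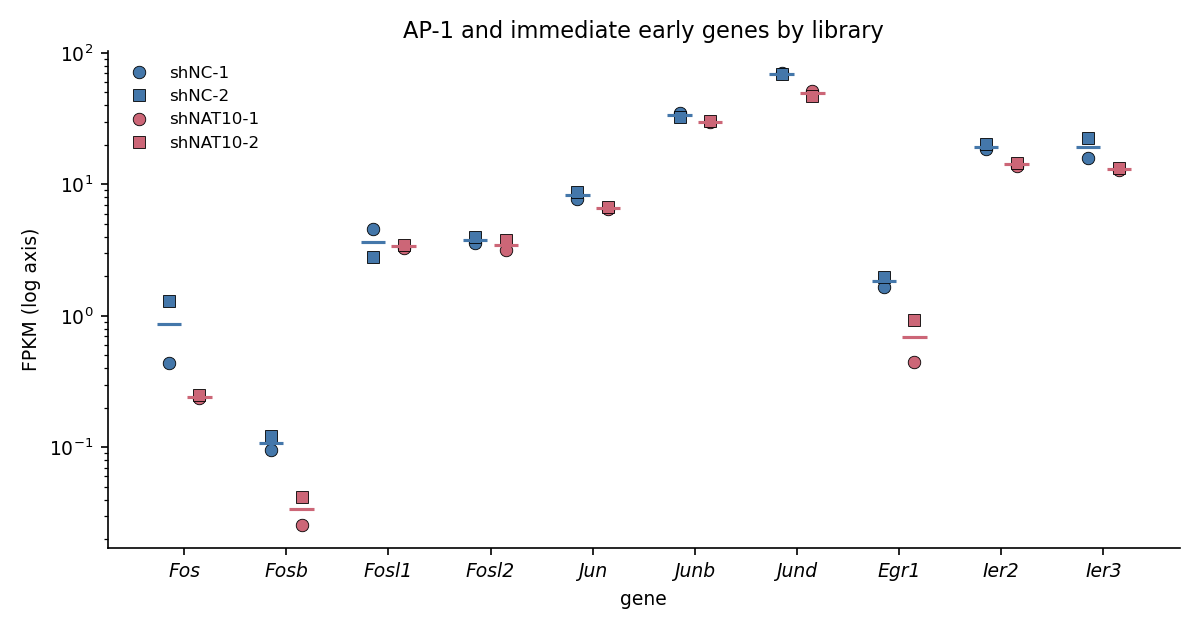
FPKM of the 10 genes on a log axis in the 4 libraries, shNC in blue and shNAT10 in red, with circles for replicate 1, squares for replicate 2 and lines at the group means. The groups overlapped only for *Fosl1* and *Fosl2*, the gap between replicates was widest for *Fos* in shNC and *Egr1* in shNAT10, and *Fosb* was near the limit of detection.

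The starts of 3 members are shown because their groups did not overlap and because their 250 bases before the start hold different sets of promoter motifs. The sequences are from RefSeq on GRCm38.p6, in the direction of the gene, with capitals on the motifs found on either strand. The windows are chr12:85473640-85473889 on the plus strand for *Fos*, chr4:95052223-95052472 on the minus strand for *Jun* and chr8:84978749-84978998 on the minus strand for *Junb*.
Fos: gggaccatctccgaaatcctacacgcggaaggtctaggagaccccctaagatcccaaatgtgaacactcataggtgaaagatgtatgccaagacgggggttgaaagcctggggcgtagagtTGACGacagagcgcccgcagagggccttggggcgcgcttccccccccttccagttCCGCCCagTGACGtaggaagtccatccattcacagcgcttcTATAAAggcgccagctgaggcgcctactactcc
Jun: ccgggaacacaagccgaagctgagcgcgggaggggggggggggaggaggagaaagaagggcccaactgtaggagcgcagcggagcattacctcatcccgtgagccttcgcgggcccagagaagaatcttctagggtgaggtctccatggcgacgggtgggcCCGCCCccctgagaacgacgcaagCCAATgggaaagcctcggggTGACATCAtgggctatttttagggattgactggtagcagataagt
Junb: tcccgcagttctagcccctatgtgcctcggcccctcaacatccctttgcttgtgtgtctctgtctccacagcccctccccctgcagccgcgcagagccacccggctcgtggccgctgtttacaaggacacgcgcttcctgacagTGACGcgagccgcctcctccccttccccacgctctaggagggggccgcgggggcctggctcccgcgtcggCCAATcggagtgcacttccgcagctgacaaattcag

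Counted back from the first transcribed base, *Fos* held TGACG, the first 5 letters of a CRE, at -129 to -125 and at -66 to -62, a GC box on the other strand at -74 to -69 and a TATA box (TATAAA) at -33 to -28. *Jun* held a GC box (GGGCGG) on the other strand at -89 to -84, a CCAAT box at -65 to -61 and TGACATCA, a variant of the TRE, at -45 to -38. *Junb* held TGACG at -106 to -102 and a CCAAT box at -36 to -32. A window was available for 7 of the 10 genes, and there was none for *Fosl1*, *Egr1* and *Ier2*. The RefSeq starts of *Jund* and *Fosl2* lie 1210 and 671 bases from their GENCODE starts, and the windows of both genes are counted in the 7. TGACG stood in 3 of the 7, *Fos*, *Fosb* and *Junb*, and in 17.8% of all 32851 windows of this length. The GC box stood in 5 of the 7, *Fosl2* among them, and in 32.7% of all windows, CCAAT in 3 of the 7 and in 33.8%, TATAAA in 1 of the 7 and in 12.4%, and TGACATCA in 1 of the 7 and in 2.93%. TGACATCA was added to the search after the sequences had been seen. The whole TRE (TGACTCA, 4.46% of all windows), the whole CRE (TGACGTCA, 1.55%), the ETS motif CCGGAAGT (2.88%), the EGR motif GCGTGGGCG (0.536%) and the CArG box (1.47%) were found in 0 of the 7. Sites further than 250 bases before the start were outside the search. The TGACG and TGACATCA matches share the letters TGAC with the TRE and CRE, and a match is a description of letters only.

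In the FOS family no gene passed the test. *Fos* and *Fosb* were at low FPKM, and the groups overlapped for *Fosl1* and *Fosl2*. *Fos* (chromosome 12, 85473890 to 85477273, 4 exons) encodes the archetypal FOS protein, and its mRNA is among the fastest to appear and decay. Its FPKM was 0.434 and 1.29 with shNC and 0.237 and 0.250 with shNAT10. These values stood for 12, 36, 7 and 9 fragments. The shNC libraries were far apart, the shNAT10 libraries lay together, and the groups did not overlap. The log2 change was -1.33 (SE 0.55, adjusted p = 0.335), which did not pass. Without shNC-1 the change was -2.02 and passed, and without shNC-2 it was -0.64 and did not. *Fos* also passed, without adjustment, after quantile normalization and in limma-voom. The ratio of shNC-2 to shNC-1 was 2.97, with an exact 95% interval of 1.51 to 6.27 for counting error. Intervals of this kind cover counting error only, since PCR copies are not told apart.

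*Fosb* (chromosome 7, 19302696 to 19310051) encodes a FOS protein linked to lasting stimulation, and rested on 22 fragments in all. Its FPKM was 0.0955 and 0.121 with shNC and 0.0255 and 0.0418 with shNAT10. Both shNAT10 values were below both shNC values, but the shNAT10 values stood for 2 and 4 fragments, so the size of the difference is poorly known at this depth. The pooled shNAT10 to shNC ratio was 0.318 with an interval of 0.102 to 0.855.

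*Fosl1* (chromosome 19, 5447547 to 5455946) encodes FRA1, which lacks the strong activation domain of FOS. Its FPKM was 4.54 and 2.81 with shNC and 3.27 and 3.48 with shNAT10. The shNC values lay on either side of both shNAT10 values. The log2 change was -0.08 (SE 0.26, adjusted p = 0.903), and it was 0.25 without shNC-1 and -0.42 without shNC-2. *Fosl2* (chromosome 5, 32135801 to 32157842) encodes FRA2. Its FPKM was 3.55 and 3.96 with shNC and 3.17 and 3.80 with shNAT10, and the groups overlapped. The log2 change was -0.11 (SE 0.16, adjusted p = 0.769). *Fosl1* and *Fosl2* together made up 93.9% and 82.8% of the summed FPKM of the FOS family with shNC and 96.1% and 96.2% with shNAT10.

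In the JUN family, *Jund* and *Jun* fell and *Junb* did not pass. *Jund* (chromosome 8, 70698949 to 70700616, 1 exon) encodes the JUN protein of resting cells, often a brake on proliferation. It had the highest FPKM of the 10 genes, above 97.0% of all genes tested. Its FPKM was 69.9 and 68.8 with shNC and 51.6 and 47.4 with shNAT10. The shNC replicates were nearly equal and both shNAT10 libraries were clearly lower, at 71.4% of the shNC mean. *Jund* fell by 0.49 on the log2 scale (SE 0.09, adjusted p = 0.114). It was the 1 member called whichever library was left out, with changes from -0.55 to -0.43, and its adjusted p in limma-voom was 0.00487.

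*Jun* (chromosome 4, 95049034 to 95052222, 1 exon) encodes c-JUN, the substrate of the JNK kinases. Its FPKM was 7.77 and 8.72 with shNC and 6.52 and 6.71 with shNAT10. Both shNAT10 libraries were lower and lay close together. *Jun* fell by 0.31 on the log2 scale (SE 0.11, adjusted p = 0.289). The call was near the threshold and was kept in 1 of the 4 fits with a library left out, that without shNC-1. It was lost without the trend in limma, in limma-voom and with the replicate number as a block, with the change between -0.39 and -0.23 in the fits with a library left out.

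*Junb* (chromosome 8, 84974484 to 84978718) encodes a JUN protein that often opposes c-JUN in cell division and is needed in blood cell lineages. Its FPKM was 34.9 and 32.8 with shNC and 29.6 and 30.2 with shNAT10. The shNAT10 libraries were a little lower and the groups did not overlap. The log2 change was -0.18 (SE 0.08, adjusted p = 0.387). The pooled fragment ratio was 0.885, with a counting interval of 0.830 to 0.944.

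**Figure D2:**
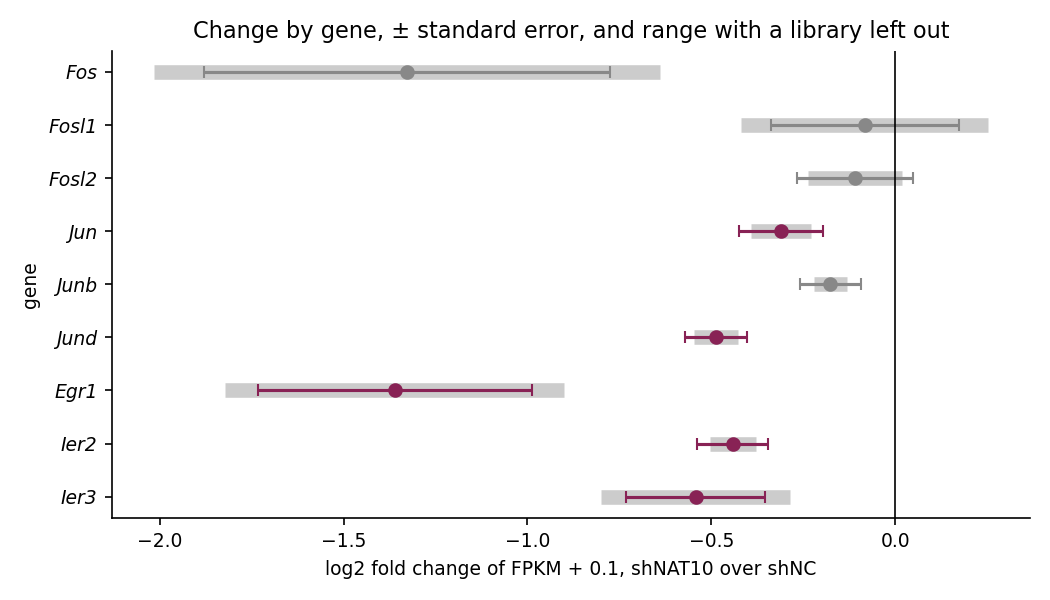
Log2 fold change of FPKM + 0.1, shNAT10 over shNC, for the 9 tested genes, with points and bars at the value ± SE over 4 libraries and grey bands from the lowest to the highest value with a library left out. The 5 genes called lower are dark red, from *Jun* at -0.31 to *Egr1* at -1.36, and only the bands of *Fosl1* and *Fosl2* cross 0.

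Summed over the 7 FOS and JUN genes, the FPKM was 121.2 and 118.5 with shNC and 94.4 and 92.0 with shNAT10. The shNAT10 sums were lower than both shNC sums, and the gap came mostly from *Jund*. The JUN family held 92.9% and 93.1% of the sum in shNC and 92.9% and 91.8% in shNAT10, which overlapped. *Jund* alone held 57.7% and 58.1% with shNC and 54.6% and 51.6% with shNAT10, while *Junb* held 28.8% and 27.7% with shNC and 31.4% and 32.9% with shNAT10. The ratio of *Jund* to *Junb* FPKM was 2.00 and 2.10 with shNC and 1.74 and 1.57 with shNAT10. The ratio was lower in both shNAT10 libraries, and no test was run on these shares. These are levels of mRNA, and proteins were not measured in these libraries.

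**Figure D3:**
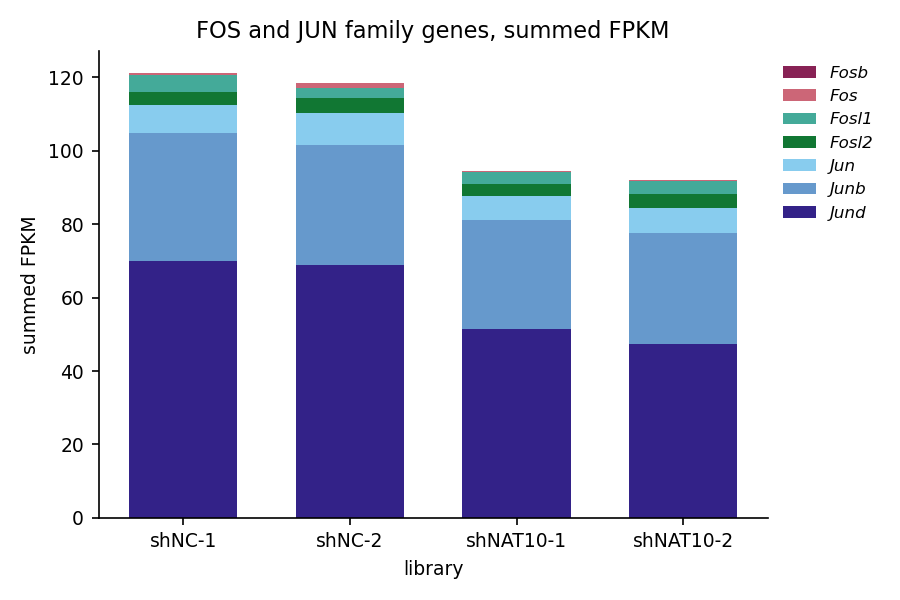
Summed FPKM of the 4 FOS and 3 JUN genes in each library, stacked by gene. The bars reach 121.2 and 118.5 with shNC and 94.4 and 92.0 with shNAT10, and *Jund* and *Junb* fill most of each bar.

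In the GENCODE M21 annotation 4 of the 10 genes overlap a gene on the opposite strand, *Jund*, *Fosl1*, *Junb* and *Jun*. For *Jund*, the antisense RNA gene *Gm11175* has 877 exon bases and all 877 lie in the exon of *Jund*, 52.6% of its length. *Gm11175* FPKM was 77.5 and 81.8 with shNC and 61.0 and 57.1 with shNAT10. These levels were close to those of *Jund* and ordered by group in the same way. *Gm11175* fell by 0.43 on the log2 scale (SE 0.09, adjusted p = 0.130). The strand setting of the counting was not given in the sources used here, so reads of *Jund* and *Gm11175* cannot be told apart. *Fosl1* shares 1163 exon bases, 57.2%, with *Ccdc85b*, whose FPKM was 11.5 and 10.7 with shNC and 15.0 and 9.64 with shNAT10, with overlapping groups and no call (adjusted p = 0.826). *Junb* shares 173 exon bases, 7.52%, with the peroxiredoxin gene *Prdx2*, which rose by 0.43 on the log2 scale (adjusted p = 0.297), a call lost whichever library was left out. *Jun* shares 232 exon bases, 7.28%, with *Junos*, whose log2 change was 0.00.

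**Figure D4:**
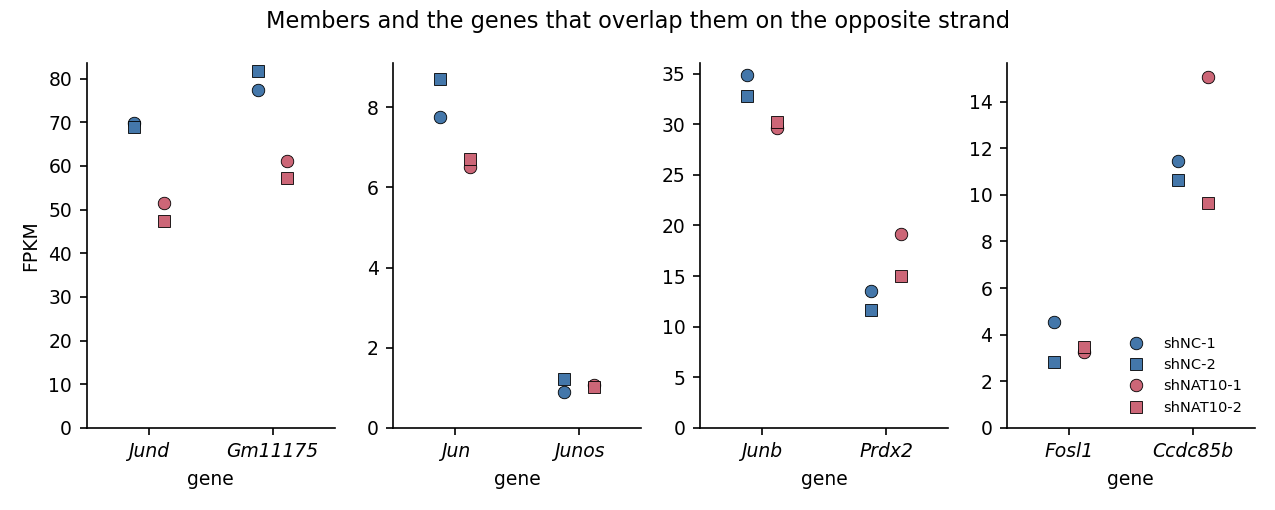
FPKM in the 4 libraries of *Jund*, *Jun*, *Junb* and *Fosl1*, each beside the gene that overlaps it on the opposite strand, with every axis from 0. *Jund* and *Gm11175* lie at 47.4 to 81.8 FPKM with both shNAT10 libraries lower, while *Junos* and *Ccdc85b* overlap between groups.

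The members outside the FOS and JUN families, *Egr1*, *Ier2* and *Ier3*, all fell. *Egr1* (chromosome 18, 34859823 to 34864984) encodes a zinc finger factor of the serum response and is a common readout of ERK signalling. Its FPKM was 1.67 and 1.99 with shNC and 0.444 and 0.931 with shNAT10. Both shNAT10 libraries were below both shNC libraries, with shNAT10-1 the lowest. *Egr1* fell by 1.36 on the log2 scale (SE 0.37, adjusted p = 0.209), to 37.6% of the shNC mean. Its values stood for 88, 106, 25 and 64 fragments, and the adjusted p in limma-voom was 0.00219. The call held in 1 of the 4 fits with a library left out, that without shNAT10-2, and the change was -0.90 without shNAT10-1.

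*Ier2* (chromosome 8, 84661331 to 84662852, 1 exon) encodes a nuclear protein of the early growth factor response and lies 312 kb from *Junb*. Its FPKM was 18.5 and 20.2 with shNC and 13.8 and 14.6 with shNAT10. The replicates were close in each group and the groups were well apart. *Ier2* fell by 0.44 on the log2 scale (SE 0.10, adjusted p = 0.151). The call held in 3 of the 4 fits with a library left out and was lost without shNAT10-1.

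*Ier3* (chromosome 17, 35821684 to 35822923) encodes a stress-induced protein that affects cell survival and ERK signalling. Its FPKM was 15.9 and 22.7 with shNC and 12.8 and 13.2 with shNAT10. The shNC libraries were apart, the shNAT10 libraries lay close together, and the groups did not overlap. *Ier3* fell by 0.54 on the log2 scale (SE 0.19, adjusted p = 0.272). The change was -0.80 without shNC-1 and -0.29 without shNC-2, and the call was lost without either shNAT10 library and without the trend in limma.

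Immediate early mRNAs can appear within the time it takes to handle cells, so the gap between replicates was measured for each gene. Over all genes tested its median was 0.27 in shNC and 0.20 in shNAT10 on the log2 scale. In shNC the gap was 1.38 for *Fos*, 0.67 for *Fosl1* and 0.51 for *Ier3*, beside medians of 0.48, 0.22 and 0.16 for genes of like FPKM. In shNAT10 it was 0.92 for *Egr1*, beside 0.26 for genes of like FPKM. In each group 3 of the 9 tested members had a gap above the median of genes of like FPKM, and the rest had a gap below it. The value was higher in shNC-2 than in shNC-1 for 7 of the 10 genes and higher in shNAT10-2 than in shNAT10-1 for 9 of the 10. The shares of all genes with these orders were not computed.

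Heat shock genes also respond to handling and stress. Of the 8 tested, 3 were called lower and 0 higher, with a median log2 change of -0.23. *Hspa1a*, an inducible HSP70 gene, had an FPKM of 3.10 and 7.18 with shNC and 0.376 and 0.550 with shNAT10. *Hspa1b*, its near-identical neighbour, had 6.11, 10.4, 1.02 and 0.977 in the same order, so shNC-2 was the highest library for both. It was also the highest for 7 of the 10 members, *Fos* and *Ier3* among them, and shNC-1 was for *Fosl1*, *Junb* and *Jund*. *Hspa1a* fell by 3.12 and *Hspa1b* by 2.88 on the log2 scale (adjusted p = 0.0846 and 0.0507), and reads may be split between these copies. The call of *Hspa1a* held in 2 of the 4 fits with a library left out and that of *Hspa1b* in all 4. *Hspe1*, a mitochondrial chaperonin gene, fell by 0.42 (adjusted p = 0.299), a call lost whichever library was left out. *Hspd1*, the most abundant of the list at 383 to 418 FPKM, had a change of -0.06. The part of handling in the values of the members was not tested.

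Other immediate early genes were called in both directions. Of 48 listed genes 44 were tested, of which 15 were called lower, 4 higher and 25 not at all, with a median log2 change of -0.22. Without shNAT10-1 or without shNAT10-2 the count called higher was 2. In limma-voom 12 of the 44 had an adjusted p under 0.05. *Csrnp1*, a nuclear factor induced by AXIN1, had an FPKM of 12.3 and 12.4 with shNC and 5.83 and 6.12 with shNAT10. It fell by 1.04 on the log2 scale (SE 0.10, adjusted p = 0.0498), which made it the 1 gene of this list with an adjusted p under 0.05. *Plk3*, a stress-responsive polo-like kinase, had 7.33 and 6.59 with shNC and 2.39 and 2.78 with shNAT10 and fell by 1.40 on the log2 scale. *Ppp1r15a*, the GADD34 phosphatase subunit that reverses eIF2α phosphorylation, had 31.3 and 26.6 with shNC and 11.9 and 15.2 with shNAT10 and fell by 1.09. The groups stood well apart for all 3 genes.

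*Klf2*, a Krüppel-like factor, fell by 1.38, and *Atf3*, the stress-induced bZIP factor, by 1.11 on the log2 scale (adjusted p = 0.0890 and 0.0507). *Btg2*, an antiproliferative gene and p53 target, rose by 1.05 on the log2 scale (adjusted p = 0.0895). The 3 other genes called higher were *Nfkbia* (0.89), which encodes the NF-κB inhibitor, *Zfp36l1* (0.63), which encodes an mRNA decay factor, and *Klf10* (0.46). With a library left out, the calls of *Nfkbia* and *Zfp36l1* held in 2 of the 4 fits and that of *Klf10* in 1. *Ptgs2*, which encodes cyclooxygenase-2 and had the highest FPKM of the list, had 54.0 and 59.9 with shNC and 48.7 and 47.8 with shNAT10, a change of -0.24 that did not pass (adjusted p = 0.303).

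Other bZIP factors, some of which pair with JUN or FOS proteins, were called lower in 7 of 22 tested genes and higher in 0, with a median log2 change of -0.20. The count called lower was 4 without shNC-1, and 1 was called higher without shNC-1, without shNAT10-2, without the trend in limma and in limma-voom. The list shares *Atf3* and *Maff* with the immediate early genes. *Atf4*, the translation-controlled factor of the integrated stress response, had the highest FPKM, 221 and 201 with shNC and 144 and 130 with shNAT10, and fell by 0.62 on the log2 scale (adjusted p = 0.103). *Nfe2l1* fell by 0.66 and *Atf6*, an endoplasmic reticulum stress sensor, by 0.48. *Maff* fell by 0.60, and *Cebpb*, which encodes a C/EBP factor, by 0.31. *Batf*, which pairs with JUN proteins in immune cells, had an FPKM of 13.5 and 13.8 with shNC and 7.82 and 10.8 with shNAT10 and fell by 0.57 (adjusted p = 0.239). Of these bZIP genes, *Atf3*, *Atf4* and *Atf6* were called in all 4 fits with a library left out, *Nfe2l1* in 3, *Maff* and *Batf* in 2 and *Cebpb* in 1.

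**Figure D5:**
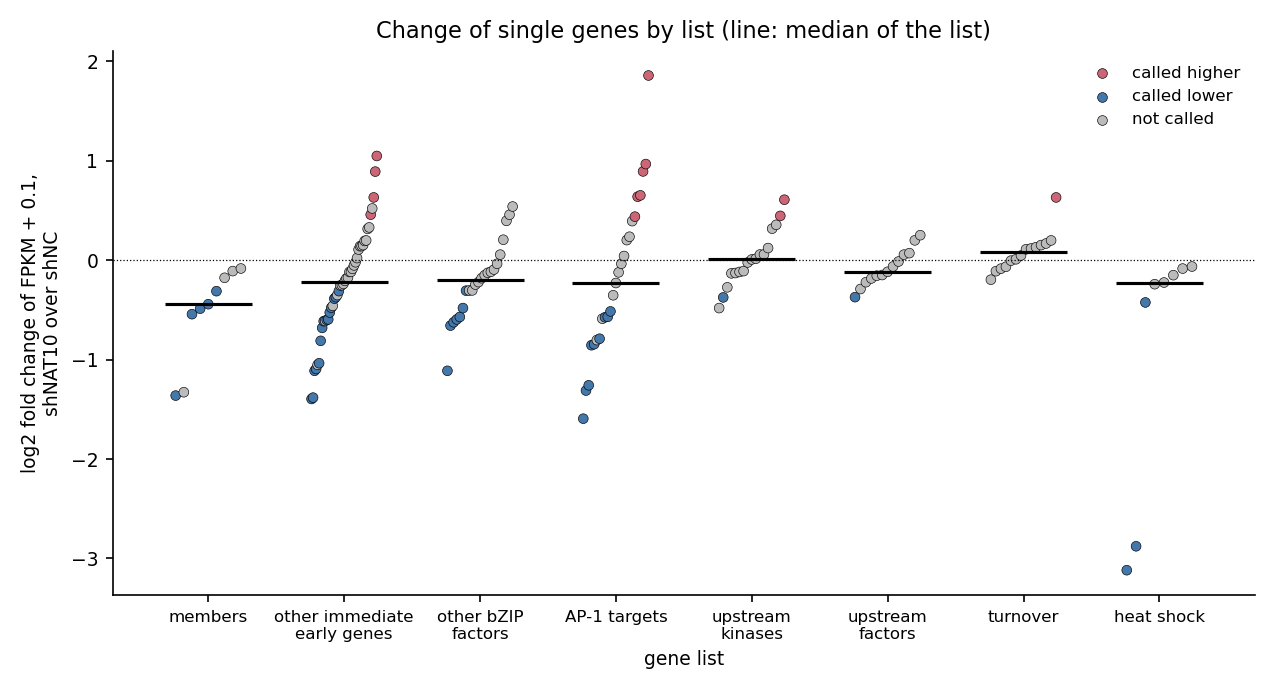
Log2 fold change of FPKM + 0.1, shNAT10 over shNC, of each tested gene by list, coloured by call, with a line at the median of the list. The medians run from -0.44 for the 9 members to 0.08 for the turnover genes, and both directions of call appear among the other immediate early genes and the AP-1 targets.

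Of 17 tested kinases of the ERK, JNK and p38 pathways, which act on AP-1 from above, 2 were called higher and 1 lower, with a median of 0.01. These calls are 17.6% of the list, near the 16.2% over all genes tested. *Mapk14*, which encodes p38α, had an FPKM of 10.4 and 10.1 with shNC and 13.7 and 14.4 with shNAT10 and rose by 0.45 on the log2 scale (adjusted p = 0.140). *Map2k4*, which encodes the JNK kinase MKK4, rose by 0.61, and *Rps6ka1*, which encodes RSK1, fell by 0.37 (adjusted p = 0.177 and 0.287). Of the 4 fits with a library left out, 2 kept the call of *Map2k4* and 1 that of *Rps6ka1*. *Map2k1*, the most abundant kinase of the list, had a change of -0.13. Of 13 upstream factors 1 was called, *Srf*, the serum response factor, which had 14.5 and 14.4 with shNC and 11.5 and 10.8 with shNAT10 and fell by 0.37 (adjusted p = 0.186). Of 14 genes of AP-1 protein and mRNA turnover, *Zfp36l1* was the 1 called, and *Khsrp*, the most abundant, had a change of -0.08.

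The textbook targets of AP-1 went both ways. Of 29 listed genes 25 were tested, of which 9 were called lower, 6 higher and 10 not at all, with a median of -0.23. The count called higher was 3 whichever library was left out. In limma-voom 13 of the 25 had an adjusted p under 0.05. *Mmp13*, a collagenase with a known AP-1 site, had an FPKM of 18.3 and 15.2 with shNC and 5.87 and 5.08 with shNAT10. It fell by 1.59 on the log2 scale (SE 0.15, adjusted p = 0.0489). *Ccnd1*, which encodes cyclin D1, went the other way and rose by 0.97 (adjusted p = 0.0489). *Mmp3* and *Mmp10* of the stromelysin group also rose, by 0.89 and 0.64 (adjusted p = 0.169 and 0.292), with an FPKM of *Mmp3* of 6.24 and 4.91 with shNC and 12.1 and 8.87 with shNAT10. The calls of *Mmp3* and *Mmp10* each held in 1 of the 4 fits with a library left out.

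Of the cytokine genes of the list, *Il6* had an FPKM of 25.7 and 27.3 with shNC and 15.2 and 14.1 with shNAT10 and fell by 0.85 on the log2 scale (adjusted p = 0.0603). *Il4* had 19.1 and 21.2 with shNC and 12.5 and 10.8 with shNAT10 and fell by 0.79, and *Il13* fell by 1.26. *Csf2*, which encodes GM-CSF, rose by 0.65 (adjusted p = 0.175), a call that held in 1 of the 4 fits with a library left out and was absent in limma-voom (adjusted p = 0.352). *Lgals3*, which encodes galectin-3, fell by 0.84. *Spp1*, which encodes osteopontin and had the highest FPKM of the list at 497 to 818, had a change of 0.39 that did not pass (adjusted p = 0.375). Among genes tied to EGR1, its corepressor gene *Nab1* rose by 0.39 (adjusted p = 0.165), and the target genes *Tgfb1* and *Fn1* fell by 0.57 and 0.37 (adjusted p = 0.147 and 0.266), the call of *Fn1* being lost whichever library was left out. Some leukocyte and mast cell markers were high in these libraries, as given above, and whether their cells are the source of the cytokine mRNAs was not tested.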

How the data were processed

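Long RNA-seq of 2 shNC and 2 shNAT10 libraries was analysed, grouped by the sample labels. The authors deposited FPKM for 53465 genes, and 0 columns of per-library values went unused. The submitters' processing notes name mm10, cutadapt, HISAT2 and DESeq2. The program that counted reads, its annotation and its strand setting were not given in the sources used here. The methods describe rRNA depletion, whereas the labels describe isolation of mRNA. A second table, with log2 fold changes and p-values of the authors' own comparison, was not used.

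After a filter at a mean FPKM of 0.1, which left 20116 genes, log2(FPKM + 0.1) was fitted in R 4.3.3 by limma 3.58.1 (lmFit, eBayes with trend), two-sided and without covariates. A call needed a fold change above 1.2 together with p no larger than 0.05 before adjustment. Adjusted p-values are Benjamini-Hochberg. With 2 libraries a group the spread is largely borrowed from other genes. GENCODE M21 exon lengths were used to turn FPKM back into fragments, and below 50 fragments 96.3% of values were whole to within 0.02. Pooled ratios have exact conditional 95% intervals. Genes of like FPKM are those within a factor of 2 in mean FPKM. The fit was tested on simulated data. Other steps used matplotlib 3.10.9, pandas 2.3.3, scipy 1.17.1, numpy 2.4.6 and Python 3.11.15.

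The members and the gene lists, which come from general knowledge, were chosen with earlier results of these data known. The text names all members, *Nat10*, up to 6 called genes of each pathway list by smallest p and its gene with the highest FPKM, and of each marker list the 2 highest and those at 0. *Nfkbia*, *Klf10*, *Csf2*, *Mmp3*, *Mmp10*, *Batf*, *Gm42418*, mast cell markers beyond the 2 highest and the genes overlapping a member were added to the text with their values known. Alternative settings covered other pseudocounts (1 and 0.01), no filter, a filter at a mean FPKM of 1, 3 other scalings, no trend, a replicate block, each library left out, and limma-voom on recovered fragments. Some results are not reported here.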

Additional observations from a re-analysis of the deposited data

How the results depend on the processing

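All values come from 2 libraries a group, and a library left out leaves its group with 1 that is assumed to vary like the rest. Over settings other than a left-out library, every log2 change of a tested member kept its direction. The other filters, limma without the trend and the replicate block leave a log2 change as it is, so its direction could not move there. Of the values of the members over all these settings, 83 kept their side of the threshold. Another 2 were called there alone (*Fos*, after quantile normalization and in limma-voom) and 4 lost their call (*Jun* in 3 and *Ier3* in 1). Without the trend in limma, 3 members were called lower in place of 5, with *Jun* and *Ier3* lost. With a library left out, the members called lower ranged from 1 (without shNAT10-1, *Jund*) to 5, being 3 without shNC-2 and 3 without shNAT10-2, the genes called lower from 899 to 1659 and the genes called higher from 1108 to 1734. The other immediate early genes called higher ranged from 2 to 3 in these fits, and the AP-1 targets called higher were 3 in each. These counts for lists other than the members were added after seeing the data. The log2 change of *Fosl1* ranged from -0.42 to 0.25 and that of *Fosl2* from -0.24 to 0.018, above 0 without shNC-1 and without shNAT10-1, respectively. *Nat10* lost its call without shNAT10-1 and without shNAT10-2. The cause was not tested. *Fosb* could be fitted only without the filter, and *Fos* falls out when a mean FPKM of 1 is required. Median-ratio rescaling could not test the scaling, since its factor was 1.00 in each library. Its values are among the 83 all the same. The labels do not say whether the replicate numbers pair the samples. Deviations of shNC-1 and shNAT10-1 from their group means had r = 0.01 over 20116 genes, which cannot exclude pairing. With the replicate number as a block, 1587 genes were called higher, 1527 lower and 4 members lower, with *Jun* lost. Depth limits *Fosb* and *Fos*, which rest on 22 and 64 fragments.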
